A study of Mus musculus with 8 samples.

Results

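The insulin receptor, its substrates, the regulatory subunit of PI3K, the kinases AKT1 and AKT2 and the FOXO transcription factors form the core of the hepatic insulin signal. Their 9 genes (Insr, Irs1, Irs2, Pik3r1, Akt1, Akt2, Foxo1, Foxo3 and Foxo4) were taken by symbol from a table of 56748 Ensembl gene IDs, and all 9 were found. RNA sequencing had been done on mouse liver, with 4 libraries from miR-93 knockout and 4 from wild type by their labels. Both genotypes were labelled MASLD (metabolic dysfunction-associated steatotic liver disease) at 16 weeks on the same diet, rich in fat and in fructose, so no library on another diet was compared here. The series title places miR-93 upstream of the deacetylase SIRT1, and the comparison asked which liver transcripts differ between the genotypes. Strain, sex and the way the knockout was made are not given in the sources used here, nor is it stated that each library came from a separate animal. The p-values therefore measure the spread between these libraries, which may be technical. RNA came from whole liver, where fewer cells of a type and less RNA per cell cannot be told apart.

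In hepatocytes insulin binds INSR, a receptor tyrosine kinase, which phosphorylates the adaptors IRS1 and IRS2. These recruit PI3K through its p85 regulatory subunit, the lipid product brings AKT to the membrane, and AKT then phosphorylates FOXO proteins and keeps them out of the nucleus. When insulin is low, nuclear FOXO1 is known to raise genes of glucose output and to raise Irs2 and Igfbp1 in liver, while the insulin signal raises genes of fat synthesis. Most of this control acts on the proteins, which RNA counts do not measure. MicroRNAs such as miR-93 lower target transcripts mainly through pairing of the seed, their bases 2 to 8, with sites in the 3′ UTR.

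The mature sequences below show what the deleted microRNA shares with its family. They are from RefSeq (GRCm38.p6) and are written 5′ to 3′ with the seed in capitals. The miR-93-5p arm lies at chr5:138165574-138165596 on the minus strand, miR-106b-5p at chr5:138165787-138165807 on the minus strand, and miR-17-5p and miR-20a-5p at chr14:115043684-115043706 and chr14:115044183-115044205 on the plus strand.
miR-93-5p: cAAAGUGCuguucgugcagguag
miR-106b-5p: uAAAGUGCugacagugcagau
miR-17-5p: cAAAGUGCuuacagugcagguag
miR-20a-5p: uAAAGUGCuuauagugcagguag
The same seed was found in miR-20b-5p, miR-106a-5p and miR-6383. These relatives carry their own genes, and none of them was measured at the mature level here.

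The complement of this seed, GCACTTT, was searched on the transcript strand of the longest annotated 3′ UTR of each of the 9 genes (GENCODE M21, GRCm38). It occurred once each in Pik3r1, Akt2 and Foxo1 and was not in these UTRs of the other 6 genes. The matches are shown because these are the 3 of the 9 genes that hold one, with the match in capitals and the bases around it.
Pik3r1: ggaagtaaggtggtgtGCACTTTctaggga
Akt2: gcagtggcatcactgtGCACTTTgccatga
Foxo1: cttggcaacagcggcaGCACTTTcctgtgc
The Pik3r1 stretch is at chr13:101683490-101683519 on the minus strand, with the match at bases 1377 to 1383 of a UTR of 4317 bases. The Akt2 stretch is at chr7:27640535-27640564 on the plus strand, with the match at bases 2410 to 2416 of 2685. The Foxo1 stretch is at chr3:52347135-52347164 on the plus strand, with the match at bases 170 to 176 of 6240. These UTRs are long: the median was 4317 bases over the 9 genes and 960 bases over all 21027 annotated genes. Of UTRs of like length 32.1%, 22.2% and 42.7% held the same letters (in the order Pik3r1, Akt2, Foxo1), and of all UTRs 11.8% did. A match of letters is a description and not a shown site.

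Summed over genes, counts ran from 9187279 to 10966019 in knockout and from 5085860 to 7451026 in wild type, and 8.08% to 15.03% of them were mitochondrial in knockout, against 25.4% to 77.8% in wild type. Wild-type replicate 4 stood apart, with 77.8% mitochondrial counts and only 1131446 others. In that library 3 counts, about the 95% upper Poisson bound for a count of 0, equal 1.69 CPM (counts per 1e6 after scaling between libraries). The same bound equals 0.219 to 0.252 CPM in knockout libraries and 0.379 to 0.455 CPM in the other wild-type libraries. Mir93 had 0 counts in all 8 libraries, so the label of the knockout could not be checked from the counts. The hepatocyte markers, from Alb to Hnf4a, summed to 41184 to 47214 CPM in knockout, against 42889 to 55816 CPM in wild type (Cyp2e1, Asgr1 and Apob higher, Alb lower, 4 not called), so the libraries carry the RNA of liver. On the log2 scale Sirt1 read -0.34 ± 0.21 (edgeR adjusted p = 0.268), knockout over wild type, and Mcm7, whose intron holds miR-93, read -0.27 ± 0.14 (0.188).

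Among the 9 genes, Foxo1 and Akt2 rose in knockout livers, by 1.37-fold and 1.31-fold, none fell, and 7 did not pass the test. Across all 13204 genes tested 21.0% passed, 10.4% higher and 10.7% lower, so 2 of 9 (22.2%) is a share near that of the whole liver transcriptome and is not a result about these genes. All 9 passed the filter on low counts. Their median log2 fold change was 0.14, beside -0.01 over all genes tested, with 5 values above 0 and 4 below. In Insr, Irs2, Akt2 and Foxo1 no knockout library overlapped a wild-type library, and that held for 30.3% of all genes tested. Log2 fold changes are given as knockout over wild type, ± the standard error of an edgeR quasi-likelihood fit over all 8 libraries. Its p-values are Benjamini-Hochberg adjusted over all genes, with a threshold of 0.05. Leaving out wild-type replicate 4, the test called 4 of the 9 genes and 35.2% of all genes. Without any other single library it called 0 or 1 of the 9, and 11.3% to 19.5% of all genes.

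**Figure D1:**
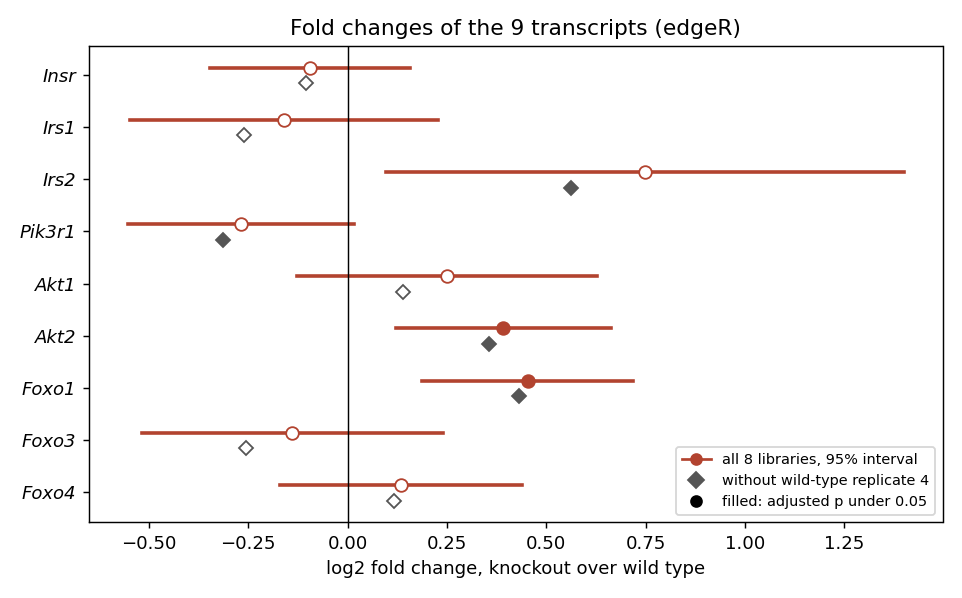
Log2 fold change, knockout over wild type, of the 9 genes (horizontal axis) as circles with 95% intervals of the edgeR fit over all 8 libraries, and as diamonds without wild-type replicate 4 (filled where adjusted p was under 0.05). Over all libraries Foxo1 at 0.45 and Akt2 at 0.39 were called, and Irs2 at 0.75 has the widest interval, 0.10 to 1.40.

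At the receptor, no difference passed the test. Insr (ENSMUSG00000005534, chromosome 8), the insulin receptor gene, had 84.3, 87.8, 87.0 and 87.8 CPM in the 4 knockout libraries, against 98.6, 91.0, 91.6 and 88.8 CPM in the 4 wild-type libraries. Every knockout library lay below every wild-type library, although the closest pair nearly touch. The log2 fold change was -0.09 ± 0.11, with a 95% interval of -0.35 to 0.16 (adjusted p = 0.595). Insr had the smallest coefficient of variation of the 9 genes, 1.91% in knockout and 4.59% in wild type. It also had the most counts of the 9 in every library, 1036 to 1191 in knockout, so its relative counting error was the smallest.

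Neither receptor substrate passed the test, although Irs2 was higher in every knockout library than in any wild-type library. Irs1 (ENSMUSG00000055980, chromosome 1), the adaptor also prominent in muscle and fat, had 12.5, 12.9, 13.5 and 15.0 CPM in knockout livers, against 15.5, 16.6, 16.7 and 8.997 CPM in wild-type livers. The first 3 wild-type libraries lay above all knockout libraries and the last, wild-type replicate 4 with 16 counts, lay below them all. Irs1 read -0.16 ± 0.18 on the log2 scale (adjusted p = 0.558), and -0.26 without that library (adjusted p = 0.141). By the GRCm38 annotation 2822 bases (30.9%) of the Irs1 exons overlap Gm9747 on the opposite strand, which had 10.3, 12.8, 14.8 and 11.9 CPM in knockout, against 19.1, 19.0, 20.02 and 10.7 CPM in wild type, higher in the same 3 wild-type libraries as Irs1. The sources used here do not state whether the authors' counting used strand, so reads of this stretch cannot be told apart.

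Irs2 (ENSMUSG00000038894, chromosome 8), the adaptor that carries much of the insulin signal in liver, had 12.9, 11.9, 11.4 and 14.1 CPM in knockout livers, against 9.60, 8.25, 7.74 and 1.12 CPM in wild-type livers. The groups do not overlap, and the lowest value rests on 2 counts in wild-type replicate 4, with an exact Poisson 95% interval of 0.136 to 4.06 CPM. Such intervals cover counting error only. Irs2 had a log2 fold change of 0.75 ± 0.30, the largest of the 9 genes in size, with an unadjusted p of 0.0278 and an adjusted p of 0.0947 in edgeR's test over all genes. Its exons overlap 9530052E02Rik on the opposite strand over 162 bases (2.56%), a gene with 0 to 8 counts. Leaving out wild-type replicate 4 gave 0.56, which passed (adjusted p = 0.00853). It also passed in 2 other alternatives, DESeq2 (adjusted p = 0.0334) and limma-voom with quality weights (0.0103).

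**Figure D2:**
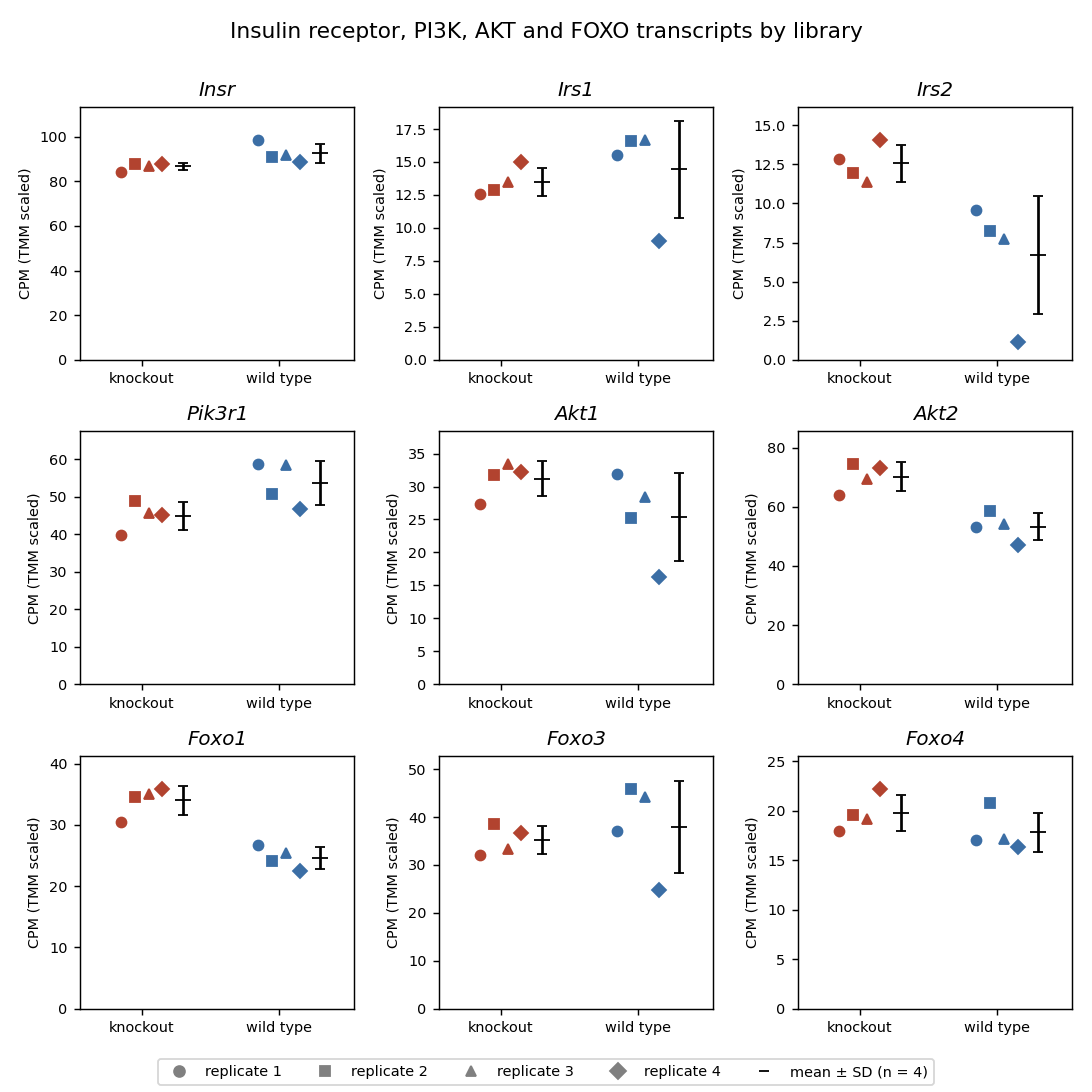
CPM of each of the 9 genes in each library (vertical axes, from 0), knockout left of wild type, with group means and SD. Foxo1 runs from 30.5 to 35.9 CPM in knockout and from 22.5 to 26.7 CPM in wild type, and wild-type replicate 4 is the lowest wild-type point in all 9 panels.

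Between the adaptors and FOXO, Akt2 rose and Pik3r1 and Akt1 did not pass the test. Pik3r1 (ENSMUSG00000041417, chromosome 13), which encodes the p85-alpha subunit that holds and docks the PI3K catalytic subunit, had 39.7, 48.7, 45.5 and 45.1 CPM in knockout livers, against 58.6, 50.7, 58.4 and 46.7 CPM in wild-type livers. The groups overlap through knockout replicate 2 and wild-type replicate 4. The log2 fold change was -0.27 ± 0.13 (adjusted p = 0.161), with a 95% interval of -0.55 to 0.02, and without wild-type replicate 4 Pik3r1 fell, by 0.31 on the log2 scale (adjusted p = 0.0202). Limma-voom with quality weights called it too (adjusted p = 0.0217).

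Akt2 (ENSMUSG00000004056, chromosome 7), the AKT kinase tied most closely to glucose control, had 63.8, 74.4, 69.5 and 73.2 CPM in knockout livers, against 53.2, 58.4, 54.2 and 47.2 CPM in wild-type livers. All knockout libraries lay above all wild-type libraries. The mean level was 70.2 ± 4.75 CPM in knockout, against 53.2 ± 4.61 CPM in wild-type livers (SD, n = 4 each), a log2 fold change of 0.39 ± 0.12 with a 95% interval of 0.12 to 0.66 (adjusted p = 0.0437). The call stood close to the threshold: it was kept without wild-type replicate 4 (0.36, adjusted p = 0.00637) and lost without any of the other 7 libraries, with adjusted p of 0.0506 to 0.122 and log2 fold changes of 0.37 to 0.44. Wild-type replicate 4 held 84 counts of Akt2.

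Akt1 (ENSMUSG00000001729, chromosome 12), the widely expressed AKT kinase of growth and survival, had 27.4, 31.8, 33.4 and 32.2 CPM in knockout livers, against 31.8, 25.2, 28.4 and 16.3 CPM in wild-type livers. The groups overlap, and the lowest value is again wild-type replicate 4. The log2 fold change was 0.25 ± 0.17 and did not pass (adjusted p = 0.325), with a 95% interval of -0.13 to 0.63, and was 0.14 without that library. Whether Akt2 differed more than Akt1 is taken up with the ratios below.

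Of the FOXO factors only Foxo1 passed the test. Foxo1 (ENSMUSG00000044167, chromosome 3), the forkhead factor best known for hepatic glucose output, had 30.5, 34.6, 35.1 and 35.9 CPM in knockout livers, against 26.7, 24.1, 25.5 and 22.5 CPM in wild-type livers. Every knockout library lay above every wild-type library, and the SD was 2.41 CPM in knockout, against 1.80 CPM in wild type. The log2 fold change was 0.45 ± 0.12, with a 95% interval of 0.19 to 0.72 (adjusted p = 0.0224). It passed in 11 of 19 alternatives, Akt2 in 8 of 19, and both were above 0 in all 19, which reuse the same libraries. By the GRCm38 annotation 674 bases (7.78%) of its exons overlap Gm20402 on the opposite strand, which had 0 to 20 counts. The adjusted p of Foxo1 lay between 0.0521 and 0.0751, with log2 fold changes of 0.44 to 0.47, in 5 fits with 1 library left out (knockout replicates 2, 3 and 4, wild-type replicates 2 and 3). After thinning to equal nuclear depth, in a single random draw, Foxo1 read 0.18 ± 0.17 (adjusted p = 0.499), and 17.2% of all genes were called. With scaling by library size only, which puts the median of all genes at 0.54, Foxo1 read 1.00 and Akt2 0.94, and neither was called (adjusted p = 0.135 and 0.167).

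Foxo3 (ENSMUSG00000048756, chromosome 10), a forkhead factor of stress resistance and autophagy, had 32.2, 38.6, 33.4 and 36.7 CPM in knockout livers, against 37.0, 45.9, 44.1 and 24.7 CPM in wild-type livers. The wild-type values spread on both sides of the knockout values, with wild-type replicate 4 lowest, from 44 counts. Foxo3 read -0.14 ± 0.17 on the log2 scale (adjusted p = 0.603), and -0.26 without that library (adjusted p = 0.0730). Foxo4 (ENSMUSG00000042903, chromosome X), a smaller factor of the same family, had 17.9, 19.6, 19.2 and 22.2 CPM in knockout livers, against 17.1, 20.8, 17.1 and 16.3 CPM in wild-type livers. The groups overlap, and its log2 fold change was 0.14 ± 0.14 (adjusted p = 0.522) with a 95% interval of -0.17 to 0.44. None of the 7 uncalled genes is shown to be equal between the genotypes: the interval of Foxo3, for example, runs from -0.52 to 0.24.

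The seed matches shown above lie in both called genes, which were higher in knockout, and in Pik3r1, which read -0.27 and was not called over all 8 libraries. No test of the matches was made, and the same letters are in 22.2% to 42.7% of UTRs of like length.

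The genes whose levels followed that of Foxo1 most closely were Agmat, the agmatinase gene, Gtf2i, a transcription factor gene, and Ubxn4, a gene of protein degradation at the endoplasmic reticulum, of 11361 named candidates. Likeness was the root mean square distance between log2 CPM profiles centred over the 8 libraries, and the 3 genes had distances of 0.0480, 0.0490 and 0.0527, beside a median of 0.452 for all candidates. Agmat averaged 122 CPM in knockout livers, against 93.1 CPM in wild-type livers. Gtf2i averaged 56.7 CPM in knockout livers, against 42.0 CPM in wild-type livers, and Ubxn4 96.5 CPM in knockout livers, against 69.4 CPM in wild-type livers. The 3 genes share libraries, depth and genotype with Foxo1, and the likeness is a description.

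Set against each other per kilobase of annotated exon, Akt2 had the highest mean of the 9 transcripts in both genotypes and the receptor substrates were the scarcest. Mean levels per kilobase in knockout were 9.85 CPM for Akt2, 7.61 for Akt1, 6.31 for Insr, 5.66 for Foxo4, 4.65 for Foxo3, 4.44 for Pik3r1, 3.93 for Foxo1, 1.99 for Irs2 and 1.47 for Irs1. In this order Insr and Foxo4, Foxo3 and Pik3r1, and Pik3r1 and Foxo1 overlap over the 4 libraries, and the other neighbours do not. In wild type the same levels were 7.47 for Akt2, 6.73 for Insr, 6.20 for Akt1, 5.32 for Pik3r1, 5.11 for Foxo4, 5.01 for Foxo3, 2.85 for Foxo1, 1.58 for Irs1 and 1.06 CPM per kilobase for Irs2. There only Foxo3 and Foxo1, and Foxo1 and Irs1, are apart over all 4 libraries. In wild-type replicate 1 Akt1 (7.77) stood above Akt2 (7.46). The wild-type means include replicate 4, where Akt1 read 3.98 and Foxo3 3.27, the lowest wild-type value of each. Irs2 stood above Irs1 in knockout and below it in wild type, and a difference of that order was tested within libraries.

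**Figure D3:**
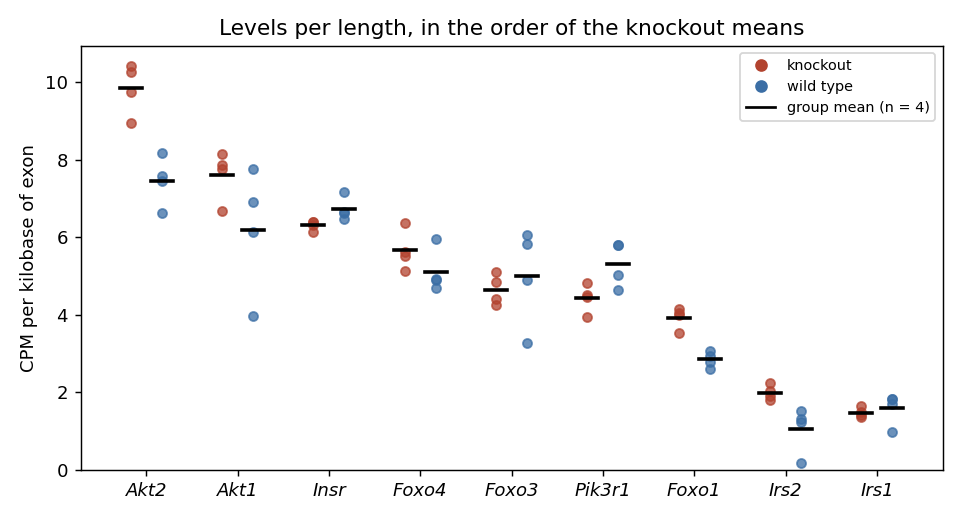
CPM per kilobase of annotated exon of the 9 genes by library (points) with group means (bars), knockout left of wild type. Akt2 leads both genotypes, at a mean of 9.85 in knockout and 7.47 in wild type, and Irs1 and Irs2 lie lowest.

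Ratios of related genes within a library do not depend on how libraries are scaled. The log2 ratio of Irs1 to Irs2 counts was -0.04, 0.11, 0.25 and 0.09 in the knockout libraries, against 0.69, 1.01, 1.10 and 2.72 in the wild-type libraries. The groups do not overlap: nearly equal counts of the adaptors in knockout stand against an excess of Irs1 in wild type. The mean was 0.10 ± 0.12 in knockout and 1.38 ± 0.91 in wild type (SD, n = 4 each), a difference of -1.28 (two-sided exact permutation test, p = 0.0286, the least that 70 assignments can give, and 0.0571 after adjustment over the 4 ratios). The difference was -0.83 once wild-type replicate 4 was left out, with an adjusted exact p of 0.0381. The unadjusted exact p stayed at 0.0286, again the least the test allows, so only the adjustment over the 4 ratios moved. The overlap of Irs1 with Gm9747 enters this ratio.

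Against Foxo1, the other FOXO genes were lower in most knockout libraries, and the differences did not pass after adjustment. The log2 ratio of Foxo4 to Foxo1 was -0.77, -0.82, -0.87 and -0.69 in knockout libraries, against -0.64, -0.21, -0.57 and -0.46 in wild-type libraries, with no overlap. The difference was -0.32 (exact permutation p = 0.0286, adjusted 0.0571), and it read 0.047 after thinning to equal nuclear depth in a single random draw. The log2 ratio of Foxo3 to Foxo1 was 0.07, 0.16, -0.07 and 0.03 in knockout libraries, against 0.47, 0.93, 0.79 and 0.14 in wild-type libraries, a difference of -0.53 (exact permutation p = 0.0571, adjusted 0.0762). In this ratio wild-type replicate 4 falls among the knockout libraries. Without it the adjusted exact p was 0.0381 for each of these 2 ratios, from an unadjusted 0.0286, the least the test then allows. For Foxo4 to Foxo1 the unadjusted p was the same over all 8 libraries, so only the adjustment moved. None of the 4 ratios passed over all 8 libraries after adjustment.

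The share of Akt1 against Akt2 did not differ beyond the spread. Its log2 ratio was -1.22, -1.22, -1.06 and -1.18 in knockout libraries, against -0.74, -1.21, -0.93 and -1.52 in wild-type libraries. The wild-type values lie on both sides of the knockout values, and the difference of -0.07 had an exact permutation p of 0.743. Akt2 passing its test and Akt1 missing it is therefore no shown difference between them.

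**Figure D4:**
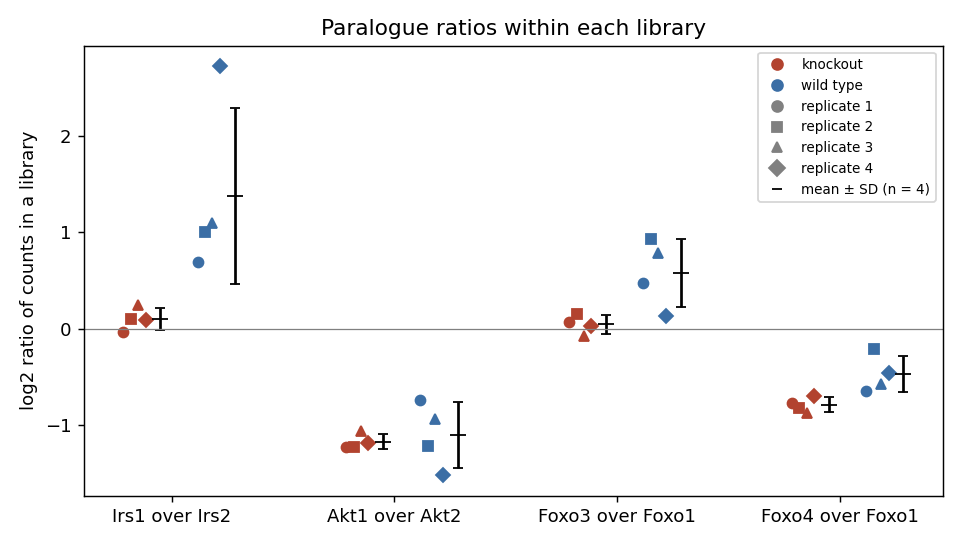
Log2 ratio of counts of the 4 gene pairs in each library, knockout left of wild type, with means and SD. Irs1 over Irs2 runs from -0.04 to 0.25 in knockout and from 0.69 to 2.72 in wild type, and Akt1 over Akt2 overlaps between genotypes.

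Of 21 tested genes that act at the receptor, Ptpn11, Ide and Socs3 rose, none fell and 18 did not pass, with a median of 0.06 (21.0% of all genes passed, 10.4% higher). Ptpn11, the phosphatase SHP2, had 24.9, 36.5, 29.3 and 34.8 CPM in knockout, against 23.4, 18.0, 23.8 and 20.8 CPM in wild type (0.54 ± 0.16, adjusted p = 0.0348). Ide, the insulin-degrading enzyme, had 47.0, 53.9, 49.0 and 53.4 CPM in knockout, against 41.2, 37.1, 40.0 and 26.4 CPM in wild type (0.46 ± 0.15, adjusted p = 0.0443). In both genes the groups do not overlap, which held for 30.3% of all genes tested. Both calls were lost (adjusted p of 0.0525 to 0.120) in 5 fits with 1 library left out, those without knockout replicates 2, 3 and 4 and wild-type replicates 2 and 3, and that of Ide also without knockout replicate 1. The third, Socs3, whose product binds the receptor and IRS proteins, read 1.60 ± 0.19 and was called in all 19 alternatives. Ptpn2, another phosphatase gene of this list, read -0.71 ± 0.24 (adjusted p = 0.0579). It passed without wild-type replicate 3 (-0.86, adjusted p = 0.0393) or 4 (-0.45, 0.0245). In this list 7 genes rose and 1 fell without wild-type replicate 4, a fit that called 35.2% of all genes.

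Of 12 tested PI3K and phosphoinositide phosphatase genes only Pdpk1 rose, none fell, and the median was -0.28, beside 10.4% of all genes higher and 10.7% lower. Pdpk1, the kinase PDK1 that activates AKT, had 13.6, 13.6, 16.4 and 16.6 CPM in knockout, against 9.73, 12.5, 9.86 and 6.19 CPM in wild type (0.59 ± 0.19, adjusted p = 0.0463). The call was lost (adjusted p of 0.0656 to 0.131) when any knockout library, or wild-type replicate 1 or 3, was left out. Inppl1, the lipid phosphatase SHIP2, read -0.43 ± 0.15 (adjusted p = 0.0581), the phosphatase gene Inpp4a -0.35 ± 0.12 (0.0662) and the regulatory subunit gene Pik3r3 -1.29 ± 0.51 (0.0957). These 3 fell in the fit without wild-type replicate 4, which called 35.2% of all genes (adjusted p of 0.0122, 0.0289 and 0.0188), and Inppl1 also without wild-type replicate 1 (0.0439).

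Of 29 genes that act on AKT or lie below it, 3 rose and 2 fell, with a median of -0.14, beside 10.4% of all genes higher and 10.7% lower. Eif4ebp1, a translation repressor acted on by mTORC1, rose to 35.5, 40.2, 40.3 and 36.8 CPM in knockout, against 24.8, 22.4, 23.2 and 11.2 CPM in wild type (0.84 ± 0.18, adjusted p = 0.0087). Bad, a death-promoting protein that AKT silences, rose by 0.64 ± 0.18 (adjusted p = 0.0302), and Ppp2cb, a catalytic subunit of the phosphatase PP2A named after its values were seen, by 0.76 ± 0.24 (0.0466). Rictor, the mTORC2 subunit needed for full AKT activation, fell to 17.7, 13.7, 15.1 and 14.5 CPM in knockout, against 20.8, 22.5, 21.4 and 28.7 CPM in wild type (-0.58 ± 0.15, adjusted p = 0.0189). Akt1s1, the AKT substrate PRAS40, fell by 0.54 ± 0.16 (adjusted p = 0.0305). Eif4ebp1 kept its call without each library in turn. Of 8 fits with 1 library left out, Rictor passed in 5 (not when knockout replicate 2, 3 or 4 was the one, adjusted p of 0.0593 to 0.0729), Akt1s1 in 3, Bad in 2 and Ppp2cb in 1, the fit without wild-type replicate 4. Rictor and Akt1s1 read 0.017 and 0.077 with library size scaling, below the median of 0.54 that all genes then had. Here 6 genes rose and 5 fell without wild-type replicate 4, beside 35.2% of all genes called in that fit.

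Of 20 tested FOXO modifiers and partners, 1 fell and none rose, with a median of 0.03, while 21.0% of all genes passed. The 1 gene was Foxk2, a forkhead factor that also answers to insulin, with 15.6, 14.9, 13.9 and 13.5 CPM in knockout, against 21.2, 23.2, 21.2 and 25.3 CPM in wild type (-0.64 ± 0.13, adjusted p = 0.0062). It kept the call without each library in turn and passed in 16 of 19 alternatives, with -0.45 after thinning (adjusted p = 0.204) and -0.05 with scaling by library size only among those it missed. Its relative Foxk1 read 0.80 ± 0.33 (adjusted p = 0.112), the nuclear exporter gene Xpo1 -0.46 ± 0.16 (0.0599) and the 14-3-3 gene Ywhaq 0.36 ± 0.16 (0.138). Without wild-type replicate 4, Foxk1 was the 1 gene of the list that rose (0.59, adjusted p = 0.00467), and 3 fell, in a fit that called 35.2% of all genes.

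Genes reported as FOXO targets changed in both directions: of 27 tested, 9 rose, 3 fell and 15 did not pass, with a median of 0.37, while 10.4% of all genes were higher and 10.7% lower. Without wild-type replicate 4 the counts were 12 and 6, beside 35.2% of all genes called. G6pc, the glucose-6-phosphatase of glucose output, had 68.2, 87.4, 73.1 and 80.5 CPM in knockout, against 349.99, 368, 348 and 327 CPM in wild type (-2.17 ± 0.14). Igfbp1, an insulin-repressed IGF-binding protein, had 19.4, 28.1, 20.3 and 26.0 CPM in knockout, against 8.08, 5.36, 7.28 and 3.94 CPM in wild type (1.84 ± 0.21). These are 2 well-known FOXO1 targets, and they changed in opposite directions. Neither overlapped between genotypes, as was so for 30.3% of all genes tested. Both were called in all 19 alternatives.

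Txnip, an inhibitor of glucose uptake and thioredoxin, rose to 104, 107, 107 and 100.2 CPM in knockout, against 31.3, 35.7, 29.3 and 28.1 CPM in wild type (1.74 ± 0.13). Ulk1, the kinase that starts autophagy, fell to 57.6, 54.6, 59.0 and 51.4 CPM in knockout, against 99.3, 116, 112 and 114 CPM in wild type (-0.99 ± 0.12). Other genes of the list, named after their values were seen, were Pdk4, which spares glucose (1.96), the cell cycle inhibitor gene Cdkn1a (3.01) and the autophagy genes Map1lc3b (0.97), Bnip3 (0.98) and Gabarapl1 (1.13), all higher. Klf15, an inducer of gluconeogenic genes, was the third that fell (-0.45), a call lost without any knockout library or wild-type replicate 2 or 3. Pck1, the other textbook gene of glucose output, read -0.37 ± 0.13 and was not called (adjusted p = 0.0663).

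Promoter letters of Igfbp1, G6pc and Irs2 are shown because FOXO1 is known to act on these genes. The stretches below are from RefSeq promoter windows of 300 bases (GRCm38.p6), written on the gene's strand with the match in capitals to CAAAACA or its complement TGTTTTG, the letters of the insulin response element known from Igfbp1 and G6pc. This motif was added after the data were seen.
Igfbp1: gagctcacaagCAAAACAaacttattttg
G6pc: ttttgtgtgccTGTTTTGctattttacgt
Irs2: gagtcacgtgtTGTTTTGctcttagttca
The stretches lie at chr11:7197668-7197696 on the plus strand, chr11:101367531-101367559 on the plus strand and chr8:11008949-11008977 on the minus strand, with the matches 108, 174 and 37 bases before the start. The letters were in 6.28% of all 32851 windows and in windows of 2 of the 9 genes, Irs1 and Irs2. In Irs1 they stand 111 and 32 bases before the start and are not shown. Matches in the other reported FOXO targets were not listed. The forkhead consensus GTAAACA or TGTTTAC was in 3.65% of all windows and in 1 of the 12 windows of the 9 genes, that of Akt1. Insr and Foxo4 have no window here. The same letters stand before Igfbp1, which rose, and G6pc, which fell.

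Genes of fat synthesis that insulin is known to induce were lower as a group, with 8 of 9 tested falling and a median of -3.03, beside -0.01 for all genes, of which 10.7% fell. Srebf1, the master regulator of these genes, averaged 89.9 ± 9.26 CPM in knockout, against 383 ± 22.3 CPM in wild-type livers (SD, n = 4 each), a log2 fold change of -2.09 ± 0.14. It was named after its values were seen, while the 4 smallest p-values belonged to Fasn, Acly, Scd1 and Thrsp. Me1, the malic enzyme gene, was the 1 not called (-0.76 ± 0.30, adjusted p = 0.0957), and without wild-type replicate 4 all 9 fell. The called changes were larger than any among the 9 insulin signalling genes, whose log2 fold changes ran from -0.27 to 0.75.

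**Figure D5:**
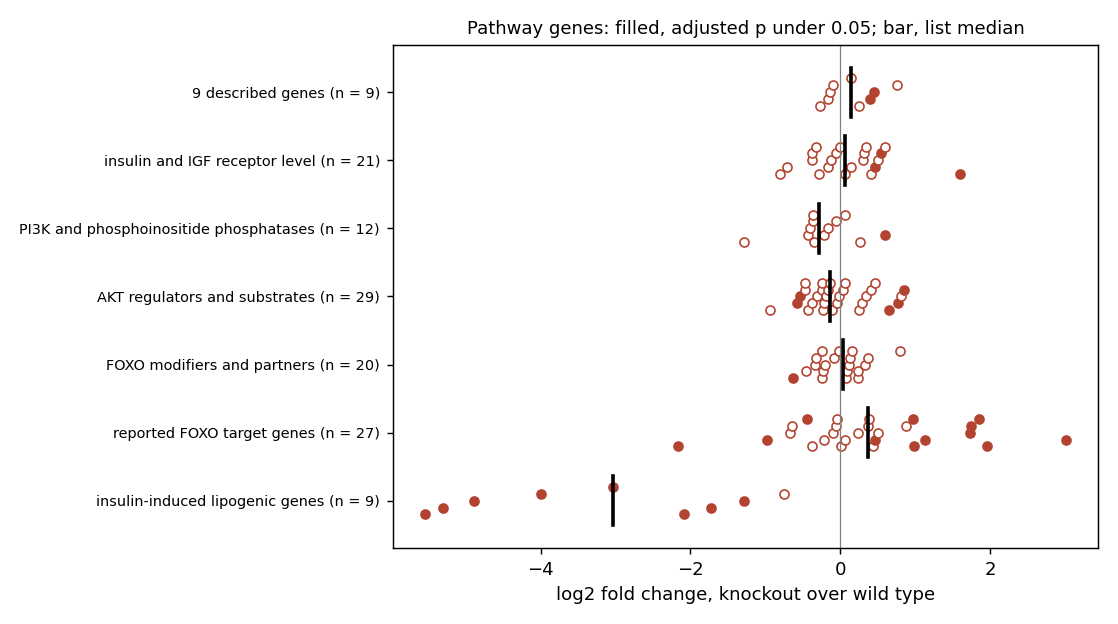
Log2 fold change, knockout over wild type, of the 9 genes (top) and of the tested genes of each pathway list, filled where called, with the list median as a bar. Insulin-induced lipogenic genes have a median of -3.03, and reported FOXO targets spread from -2.17 to 3.01.

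Markers of other liver cells differed between the genotypes beside these results. Kupffer cell markers summed to 127 to 157 CPM in knockout, against 41.7 to 189 CPM in wild type (4 of 8 higher, none lower), or 41.7 to 55.8 CPM in wild type without replicate 4. Sinusoidal endothelial markers summed to 138 to 260.1 CPM in knockout, against 90.4 to 188 CPM in wild type (5 of 8 higher), or 90.4 to 113 CPM without replicate 4. B cell markers summed to 9.72 to 73.0 CPM in knockout, against 48.9 to 491 CPM in wild type (5 of 6 lower), and T and NK cell markers to 4.16 to 5.63 CPM in knockout, against 7.15 to 15.2 CPM in wild type (2 of 4 tested lower). Cholangiocyte markers summed to 31.4 to 33.0 CPM in knockout, against 10.1 to 20.3 CPM in wild type (1 of 2 tested higher), or 17.3 to 20.3 CPM without replicate 4. Those of stellate cells summed to 91.5 to 98.4 CPM in knockout, against 72.2 to 189 CPM in wild type (2 of 7 lower), or 72.2 to 93.7 CPM without replicate 4. Neutrophil markers summed to 3.35 to 4.63 CPM in knockout, against 1.51 to 4.50 CPM in wild type, or 1.51 to 2.53 CPM without replicate 4, with Ly6g and Mpo at 0 counts in every library. Adipocyte markers summed to 0 to 0.168 CPM in knockout, against 0.632 to 4.50 CPM in wild type, or 0.632 to 0.825 CPM without replicate 4, and Lep was at 0 throughout. The part of these cells, of the mitochondrial share and of depth in the levels of the 9 genes was not tested.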

How the data were processed

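Liver RNA of 4 miR-93 knockout and 4 wild-type libraries was sequenced. The deposited table holds raw counts per gene made by the authors. The submitters' processing notes name cutadapt 4.2, STAR 2.7.10a and the mm39 build; the counter and its strand setting are not given in the sources used here. Names, exon lengths and 3′ UTRs came from GENCODE M21 (GRCm38), which named 52073 of 56748 IDs. The other 4675 took 0.332% to 1.57% of a library. Analysis used R 4.3.3, edgeR 4.0.16 (TMM, filterByExpr, robust quasi-likelihood test, two-sided, Benjamini-Hochberg, threshold 0.05), limma 3.58.1, DESeq2 1.42.0 and matplotlib 3.10.9. The filter left 13204 of 25937 detected genes. CPM are TMM-scaled. Ratios used raw counts plus 0.5.

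The genes and lists were chosen with earlier results of these data known. Named genes were the 9, Sirt1, Mcm7 and Mir93, the 4 smallest p per list and the 3 profiles nearest to the gene with the smallest p. The labels do not state that replicate numbers pair the libraries, so the reported test was unpaired. Within each genotype, every pair of libraries differed by more than counting noise. Alternatives were other scalings, filters and tools, a replicate block, removal of mitochondrial genes, thinning to 1131446 nuclear counts and each library left out. All reuse the same libraries, and thinning was a single random draw. Counts of list genes under these alternatives were added after seeing the data. Steps were tested on simulated data. Some genes that the lists take are not reported here.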

Additional observations from a re-analysis of the deposited data

Results flagged for a closer look

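In 1 of 30 groups of libraries checked, a single library stood far from the others. Irs1 in wild-type replicate 4 was 8.997 CPM, from 16 counts, while the other wild-type libraries held 15.5 to 16.7 CPM and the gap took up 0.850 of the group's range, past Dixon's 95% critical value for 4 samples. Chance flags about 1 in 20 groups. The same library had 77.8% mitochondrial counts, and the part of that in its Irs1 level was not tested.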

How the results depend on the processing

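Of all genes, 2777 were called with all libraries, 685 with scaling by library size only, 4984 by limma-voom with quality weights, 1267 with the replicate block, 1531 after thinning to equal nuclear depth and 1489 to 4853 with 1 library left out. Of the 9 insulin signalling genes 2 were called in the reported test, 0 with library size only, 1 without a filter on low counts, 3 by DESeq2, 4 by limma-voom with quality weights, 0 with the replicate block, 0 after thinning and 0 to 4 with 1 library left out. In the same order, the shares of all genes called were 21.0%, 5.19%, 9.80%, 27.1%, 37.7%, 9.60%, 17.2% and 11.3% to 35.2%. By their labels the paired libraries of that block share only a replicate number. Same-numbered pairs correlated at -0.19, -0.03, -0.07 and -0.09, too few values to show whether they were paired. Scaling by library size only raised the median of all genes to 0.54 and turned these values positive, all below that median: Insr 0.46, Irs1 0.36, Pik3r1 0.27, Foxo3 0.37, Sirt1 0.30, Mcm7 0.30, Inppl1 0.15, Inpp4a 0.22, Rictor 0.017, Akt1s1 0.077, Xpo1 0.16 and Klf15 0.13. That scaling also ended the calls of Foxo1, Akt2, Ptpn11, Ide, Pdpk1, Eif4ebp1, Bad, Ppp2cb, Foxk2, Map1lc3b, Bnip3 and Ulk1, among others. Thinning ended those of Foxo1, Akt2, Ide, Pdpk1, Bad, Ppp2cb, Foxk2, Agmat, Gtf2i and Ubxn4, among others. Testing without a filter ended those of Akt2, Ide, Rictor, Akt1s1, Klf15, Agmat and Gtf2i. The replicate block ended the calls of Foxo1, Akt2, Ptpn11, Ide, Pdpk1, Rictor, Akt1s1, Bad, Ppp2cb, Foxk2, Klf15, Agmat, Gtf2i and Ubxn4, among others. Irs2, Akt1, Akt2, Foxo1 and Foxo4 were positive in all 19 alternatives, which reuse the same libraries and are not independent of each other.

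With 1 library left out the ratio differences ran from -1.51 to -0.83 for Irs1 over Irs2, -0.21 to 0.049 for Akt1 over Akt2 (0.049 without wild-type replicate 1), -0.68 to -0.42 for Foxo3 over Foxo1 and -0.37 to -0.23 for Foxo4 over Foxo1. Thinning, a single random draw, gave 0.047 for Foxo4 over Foxo1. The cause was not tested. With the replicate block the smallest exact p that 4 pairs allow is 0.125.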
